A study of Mus musculus with 3 samples.

Results

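The AP-1 family was examined as 10 genes chosen by symbol: Fos, Fosb, Fosl1, Fosl2, Jun, Junb, Jund, Atf3, Batf and Maff. They are 10 of the 55536 annotated genes in the deposited tables, and all 10 were found. The data are total RNA-seq, after ribosomal RNA depletion, of cytosolic RNA taken from primary macrophages, which were grown from mouse bone marrow of strain C57BL/6J. All libraries form 1 group: cells were exposed to 100 ng/ml Lipid A for 12 h, kept without it for 12 h, and exposed again to 100 ng/ml Lipid A for 30 min. Lipid A is the part of bacterial lipopolysaccharide that activates Toll-like receptor 4. The group has 3 biological replicates, numbered as in the labels, and all carry the same donor entry, so SDs describe only the spread between these libraries, which may be technical. No untreated, singly exposed or nuclear sample was analysed here, so no level below is read as an induction or a tolerance.

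AP-1 proteins are transcription factors that bind DNA as dimers, through a basic region and a leucine zipper. Fos proteins need a partner, usually a Jun protein, whereas Jun proteins can also pair with each other. In macrophages, Toll-like receptor 4 signals through MAP kinases to serum response factor and its partners at genes such as Fos, and to Jun proteins themselves. Several of these genes are immediate-early genes, transcribed within minutes of a stimulus into short-lived mRNAs.

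Levels are given in TPM, a transcript's share of its library after scaling for length, and as mean ± SD over n = 3 libraries. The libraries held 28759407, 54709008 and 49878183 expected counts in annotated genes in replicates 1, 2 and 3. All 10 macrophage markers reached 1 TPM in every library, against 2 of 8 neutrophil markers (S100a8 and S100a9), 1 of 8 T, NK and B cell markers (Cd79b) and 0 of 8 stromal, endothelial and erythroid markers. Summed TPM in replicates 1, 2 and 3 was 8224, 7681 and 7737 for the macrophage markers. It was 6.81, 10.04 and 8.62 for the neutrophil markers, 1.66, 1.26 and 1.96 for the lymphoid markers and 0.46, 0.22 and 0.25 for the stromal, endothelial and erythroid markers.

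The cytosol held mainly 6 of the 10 AP-1 mRNAs. Junb, Atf3, Fos, Jun, Jund and Batf each had at least 1 TPM in every library, the limit for calling a gene detected, which 41.2% of protein-coding genes met. Their means ranged between 33.5 TPM for Batf and 133 TPM for Junb, above the median of 8.32 TPM over the 9080 detected protein-coding genes. Maff, Fosl2, Fosb and Fosl1 fell short of 1 TPM in at least 1 library.

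**Figure D1:**
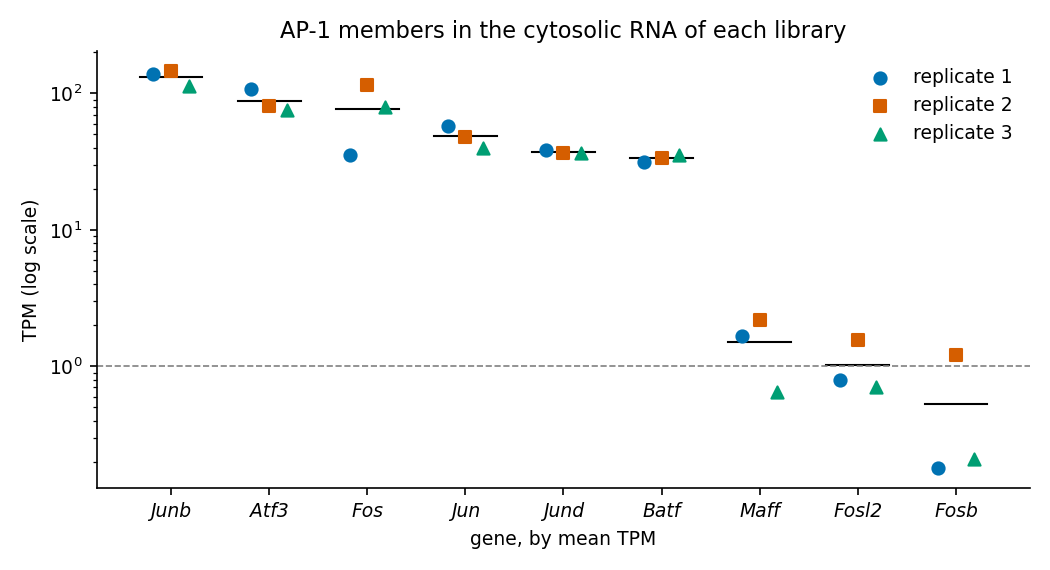
TPM (log scale) of 9 AP-1 genes in each library, in the order of their mean, which the black bars mark; the dashed line is 1 TPM, and Fosl1, at most 0.01 TPM, lies under the axis. Fos ranges between 35.2 and 114 TPM, while the points of Jund and Batf nearly coincide. Replicate 2 is the highest library for Junb, Fos, Maff, Fosl2 and Fosb.

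Fos (ENSMUSG00000021250.13, chr12:85473890-85477273, plus strand, mm10) encodes c-Fos, the prototype immediate-early member. It had 35.2, 114 and 79.5 TPM in replicates 1, 2 and 3, from 2946, 19046 and 9443 expected counts. Replicate 2 was the highest and replicate 1 the lowest, 3.25-fold apart. By counts scaled to the effective library size alone (CPM), Fos had 104, 340 and 191 in replicates 1, 2 and 3, in the same order. The mean of 76.3 ± 39.7 TPM was exceeded by 6.57% of detected protein-coding genes.

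Fos carried nearly all of the Fos subfamily's mRNA. Its share of the subfamily's summed TPM was 97.3%, 97.6% and 98.9% in replicates 1, 2 and 3. Fosl2 (ENSMUSG00000029135.10, chr5:32135801-32157842, plus strand), which encodes Fra-2, had 0.80, 1.56 and 0.71 TPM. Fosb (ENSMUSG00000003545.3, chr7:19302696-19310051, minus strand) had 0.18, 1.21 and 0.21 TPM, from 25, 391 and 50 counts. Both were highest in replicate 2, the library that was also highest for Fos.

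Fosl1 (ENSMUSG00000024912.6, chr19:5447547-5455946, plus strand), which encodes Fra-1, had 1.02, 1.03 and 0 expected counts in replicates 1, 2 and 3. With 0 counts up to 3 remain possible from counting error alone, and Fosl1 was not detected. Its transcript Fosl1-201, of 1864 bases, shares 1163 with Ccdc85b on the opposite strand, which had 85.0, 242 and 193 counts. The fractional counts of the pair, such as 1.02 and 84.98 in replicate 1, add up to a whole number, so reads of the overlap were split. The bound of 3 leaves out Fosl1 reads that may have been given to Ccdc85b. Whether counting used strand is not given in the sources used here.

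Among the Jun subfamily, which can form dimers without Fos, all 3 members were detected. Junb (ENSMUSG00000052837.6, chr8:84974484-84978718, minus strand), an inducible member, had 139, 147 and 113 TPM in replicates 1, 2 and 3. Its mean of 133 ± 18.0 TPM was the highest of the 10 genes and was exceeded by 3.41% of detected protein-coding genes. Jun (ENSMUSG00000052684.4, chr4:95049034-95052222, minus strand), which encodes c-Jun, had 57.3, 48.1 and 39.9 TPM. Replicate 3 was the lowest library for both. Prdx2, on the opposite strand with 3961, 7501 and 6490 counts in replicates 1, 2 and 3, shares 173 exonic bases with the gene Junb, but 0 with Junb-201, the transcript that carried nearly all Junb counts.

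Jund (ENSMUSG00000071076.6, chr8:70698949-70700616, plus strand), known as the more constitutive Jun gene, had 38.7, 36.4 and 36.7 TPM in replicates 1, 2 and 3. Its libraries differed by 1.06-fold at most. Jund was also the steadiest member by count, with 94.3, 93.6 and 90.4 CPM. An antisense gene, Gm11175, shares 877 exonic bases with Jund and had 47.5, 256 and 171 counts, equal to 1.78%, 4.87% and 3.82% of the Jund counts. The fractional counts of the pair, such as 2662.49 for Jund and 47.51 for Gm11175 in replicate 1, add up to a whole number in each library. Reads were thus split between the pair in these counts, and a part of either count may belong to the other gene. Jun overlaps the antisense gene Junos over 232 bases, but Junos had only 9.17, 9.17 and 22.3 counts.

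Atf3 (ENSMUSG00000026628.13, chr1:191170296-191218039, minus strand) encodes a stress-induced factor that pairs with Jun proteins and is known to restrain Toll-like receptor genes in macrophages. Atf3 had 108, 80.7 and 75.9 TPM in replicates 1, 2 and 3, with a mean of 88.1 ± 17.2 TPM. Unlike Fos, its highest library was replicate 1. Batf (ENSMUSG00000034266.6, chr12:85686669-85709087, plus strand), which pairs with Jun proteins in immune cells, had 31.3, 33.8 and 35.3 TPM, a spread of 1.13-fold.

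Maff (ENSMUSG00000042622.14, chr15:79346621-79359076, plus strand) encodes a small MAF protein, which has a leucine zipper but no activation domain. It had 1.68, 2.19 and 0.65 TPM in replicates 1, 2 and 3, from 135, 365 and 91 counts. Only replicate 3 was below 1 TPM.

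Most neighbours in the order of mean level could not be separated. The order was Junb, Atf3, Fos, Jun, Jund, Batf, Maff, Fosl2, Fosb and Fosl1. For each pair the difference of log2(TPM + 1) was taken within each library, and called when it had 1 sign in all 3 libraries and its mean exceeded 3 SD. Of the 9 neighbouring pairs only 1 was called: Batf exceeded Maff by 3.83 ± 0.55 on the log2(TPM + 1) scale, or 14.3-fold. The smallest two-sided p that an exact sign-flip test can give with 3 libraries is 0.25, so the rule is a description, and the pseudocount of 1 understates differences of low genes.

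Among the 15 pairs of detected members, 6 were called. Junb exceeded Jun by 1.44 ± 0.16, Jund by 1.80 ± 0.20 and Batf by 1.95 ± 0.26 on that log2 scale. Atf3 exceeded Jun by 0.85 ± 0.10, Jund by 1.20 ± 0.22 and Batf by 1.36 ± 0.35. None of the 5 pairs with Fos was called. Fos minus Jun was -0.69, 1.23 and 0.98 in replicates 1, 2 and 3, so Fos was below Jun in replicate 1 and above it in the others. Atf3 minus Fos was 1.59, -0.50 and -0.06.

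Most members varied between the libraries by more than counting noise. A chi-square test of homogeneity over the 3 libraries, with Benjamini-Hochberg adjustment over the 13410 genes that averaged 10 counts or more, called 8 of the 9 members it could test, while Fosl1 was too low to test. Over all genes tested it called 64.8%, so such a call was common. Smaller differences are called at higher counts. The share over all genes was not matched to the counts of the members or of the lists below. The test compares these libraries, not conditions. Jund was the member not called, with an adjusted p = 0.18, and Batf was called with an adjusted p = 0.00046. With DESeq2 size factors or library totals in place of edgeR's TMM sizes, all 9 were called, Jund included.

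The size of the spread separated the members more than the call did. The biological coefficient of variation from edgeR estimates the spread left after counting noise, with each gene drawn towards the trend over all genes. This coefficient was 63.0% for Fosb, 36.4% for Maff, 32.3% for Fos and 27.5% for Fosl2. That of Fos exceeded the value of 95.5% of 12738 genes. Jun and Atf3 had 14.8% each and Junb 14.3%, near the median of 13.4% over all genes. Batf had 10.5% and Jund 9.98%, a value above that of only 5.30% of genes. No gene lay under 8%, so low values such as these rest partly on the trend.

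**Figure D2:**
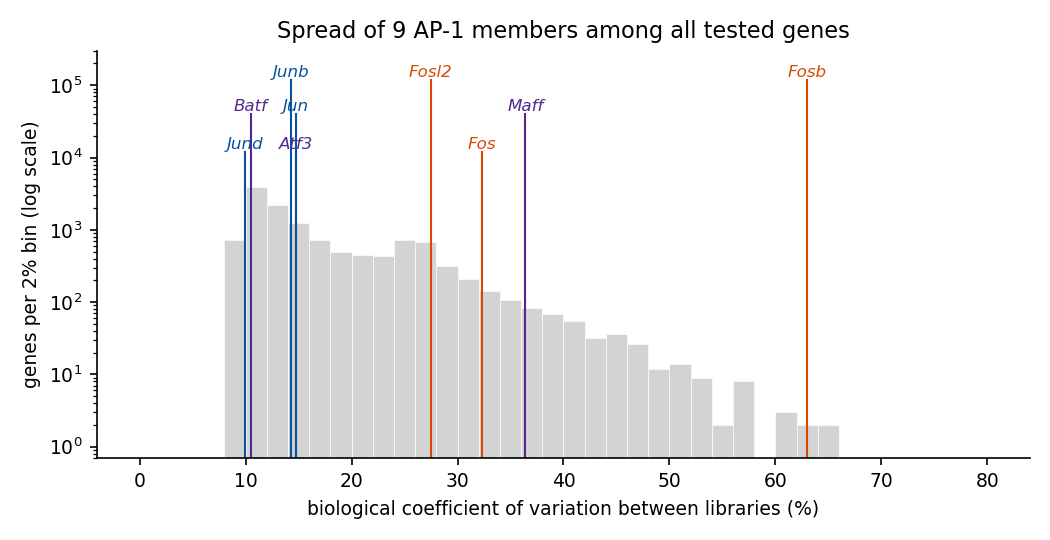
Histogram of the biological coefficient of variation (percent, 2% bins) of 12738 genes on a log axis of gene counts, with vertical lines for 9 AP-1 genes coloured by subfamily; label heights carry no value. Fosb, Maff, Fos and Fosl2 stand in the right tail between 27.5% and 63.0%, while Jund and Batf lie at the left edge and the lines of Jun and Atf3 coincide at 14.8%.

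The members with the widest spread were high in replicate 2. For each library the CPM, with 1 count added, was divided by the mean of the others. In replicate 2, Fosb was 7.17-fold, Fos 2.30-fold and Fosl2 2.15-fold the mean of the others, or 2.84, 1.20 and 1.11 on the log2 scale. These are 3 of the 9 members with enough counts, and 0.753% of all genes tested were over 2-fold higher there. Maff followed with a log2 ratio of 0.97. In all, 8 of the 9 members were higher in replicate 2 than the mean of the others, against 50.4% of all genes. Atf3 was the exception at -0.11. The median log2 ratio of the members was 0.29, against a median of 0.00 over all genes. Of other lists, 6 of 22 upstream genes, 3 of 11 textbook AP-1 targets and 12 of 22 other leucine zipper genes were lower there. Their median log2 ratios were 0.07, 0.13 and -0.02.

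In replicate 1, Fos and Fosb were the members over 2-fold lower than in the others. Their log2 ratios were -1.35 and -2.12, and 1.92% of all genes were over 2-fold lower there. The median of the members was 0.03, against -0.01 over all genes. In replicate 3, Fosb and Maff were over 2-fold lower, at -1.94 and -1.61, where 1.89% of all genes were. Of the 9 members, 8 lay below the other libraries there, with a median of -0.37, against 0.00 over all genes. Other lists were lower there too: 17 of 22 other leucine zipper genes and 15 of 22 upstream genes lay below the other libraries, with medians of -0.13 and -0.08. One library against the others of the same group allows no test.

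**Figure D3:**
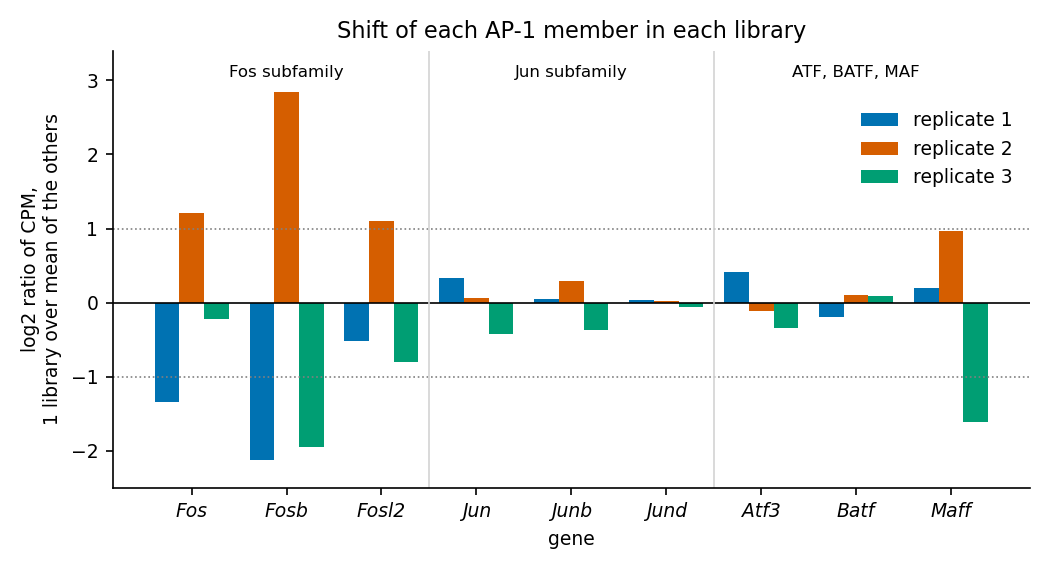
Log2 ratio of CPM in each library over the mean of the others for 9 AP-1 genes grouped by subfamily; dotted lines mark 2-fold. Fos, Fosb and Fosl2 exceed 1 in replicate 2, Maff reaches 0.97 there and -1.61 in replicate 3, and every bar of Jun, Junb, Jund, Atf3 and Batf stays between -0.43 and 0.42.

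Jun mRNAs outnumbered Fos mRNAs in every library, but by a factor that varied. The summed TPM of Fos, Fosb, Fosl1 and Fosl2 was 36.1, 117 and 80.4 in replicates 1, 2 and 3, while that of Jun, Junb and Jund was 235, 231 and 189. The ratio of the Jun sum to the Fos sum was 6.51, 1.97 and 2.35, or 1.64 ± 0.93 on the log2 scale. The Fos sum made up 8.76%, 25.2% and 21.1% of the TPM of all 10 members. The Jun sum made up 57.1%, 49.7% and 49.6%, and Atf3, Batf and Maff together the rest. These are shares of mRNA, and protein or dimers were not measured.

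**Figure D4:**
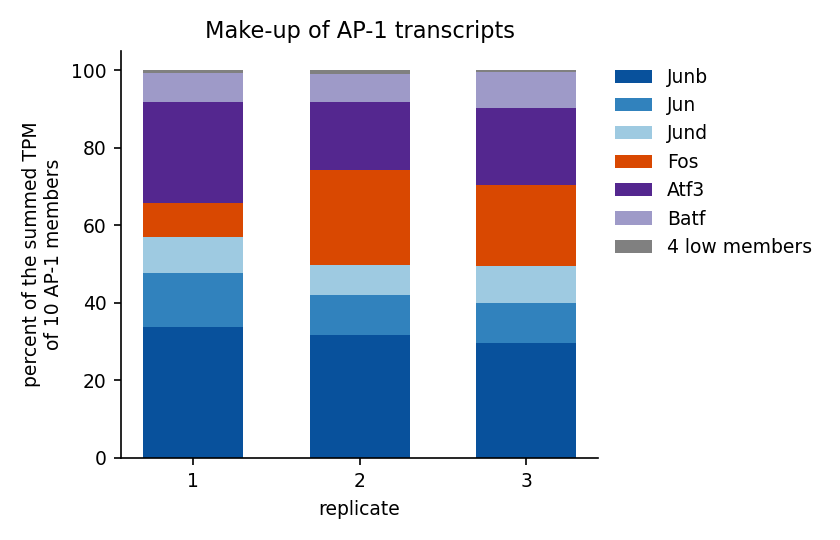
Percent of the summed TPM of 10 AP-1 genes taken by each gene in each library; blues are Jun genes, orange is Fos, purples are Atf3 and Batf, and grey is the sum of Fosb, Fosl1, Fosl2 and Maff. Fos takes 8.52% in replicate 1, 24.6% in replicate 2 and 20.8% in replicate 3, while Junb stays between 29.5% and 33.8%.

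Fos was also the detected member with the most mixed transcripts. Its protein-coding transcript, Fos-201, had 32.1, 97.4 and 53.7 TPM in replicates 1, 2 and 3, which was 91.4%, 85.1% and 67.6% of Fos TPM. A non-coding transcript of 631 bases, Fos-202, had 2.88, 16.5 and 25.5 TPM, or 8.19%, 14.4% and 32.1%. Replicate 3 had the highest share, and its excess of Fos over replicate 1 was smaller in Fos-201 than in the gene as a whole. By expected counts, which are not divided by length, the share of Fos-202 was 1.87%, 3.56% and 9.42%, in the same order of libraries.

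Fos-202 lacks the first exon of Fos-201, begins with 24 bases of intron 1, shares the next splice junctions and ends inside the last exon. Its first 60 bases (chr12:85474911-85474970, plus strand) are shown because these intron bases, in capitals, are the only ones outside the exons of Fos-201; they end in the AG of the splice acceptor.
Start of Fos-202: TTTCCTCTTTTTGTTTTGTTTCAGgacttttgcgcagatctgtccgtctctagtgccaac
The split between the pair of transcripts therefore depends on the quantification. The second deposited quantification put 30.4%, 34.4% and 43.9% of Fos TPM on Fos-202 in replicates 1, 2 and 3, and 8.52%, 10.1% and 15.1% of Fos counts. Both quantifications thus placed the highest share in replicate 3.

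RNAs that normally stay in the nucleus were also highest in replicate 3. Malat1 had 304, 182 and 638 TPM in replicates 1, 2 and 3 and Neat1 had 19.9, 12.7 and 47.7 TPM. Both were lowest in replicate 2, whereas the Fos-202 share was lowest in replicate 1. The share of TPM on non-coding transcripts, 8.65%, 14.9% and 32.4% for Fos, had a median of 3.56%, 3.12% and 5.19% over 7512 genes with both kinds of transcript. The part of nuclear RNA in the Fos-202 share was not tested.

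**Figure D5:**
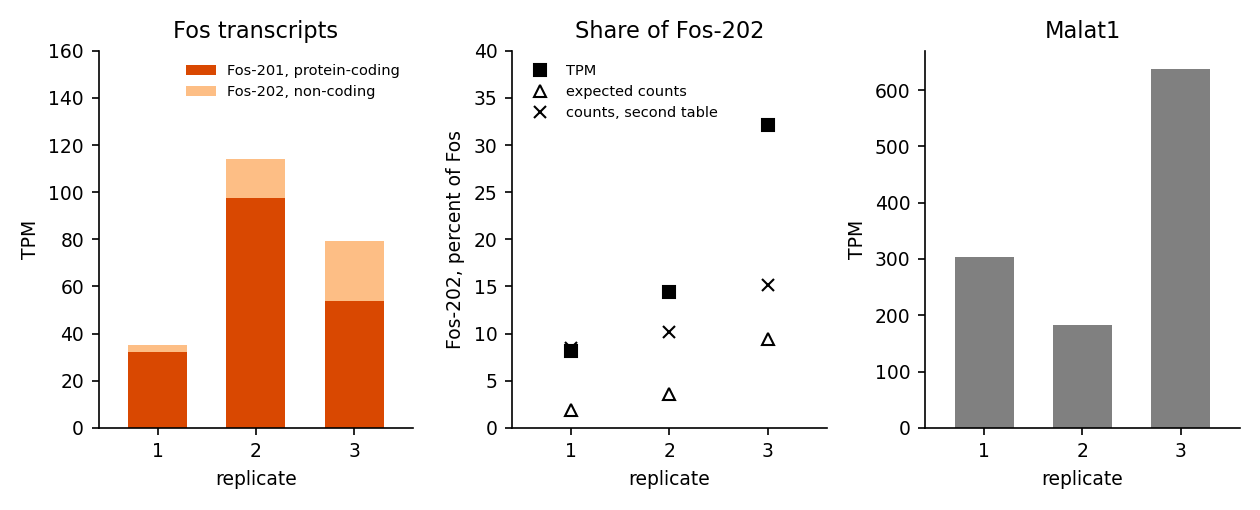
Left, TPM of Fos-201 and Fos-202 stacked for each library; middle, share of Fos-202 in Fos by TPM, by expected counts and by counts of the second table; right, TPM of the nuclear RNA Malat1. Each measure of the Fos-202 share is lowest in replicate 1 and highest in replicate 3, where Malat1 also peaks at 638 TPM. Malat1 is lowest in replicate 2, so the orders of the libraries differ.

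The other detected members rested on 1 transcript each. Jun and Jund have a single annotated transcript with 1 exon. Junb-201 took 99.95% of Junb TPM, Atf3-201 99.9% of Atf3 and Batf-201 99.3% of Batf, as means over the libraries. In the second quantification Atf3-201 took 89.5 ± 2.90% and a non-coding transcript, Atf3-202, took 10.5 ± 2.90%.

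Fosb transcripts include a known splice inside the last exon, which in mouse brain yields the truncated protein ΔFosB. Annotated transcripts Fosb-206 and Fosb-207 remove an intron of 140 bases (chr7:19305007-19305146) that Fosb-201 keeps as coding sequence. The intron is shown in capitals with 20 bases on either side (chr7:19304987-19305166, minus strand), because its removal is what separates the transcripts; it starts with GT and ends with AG.
Fosb-201 stretch: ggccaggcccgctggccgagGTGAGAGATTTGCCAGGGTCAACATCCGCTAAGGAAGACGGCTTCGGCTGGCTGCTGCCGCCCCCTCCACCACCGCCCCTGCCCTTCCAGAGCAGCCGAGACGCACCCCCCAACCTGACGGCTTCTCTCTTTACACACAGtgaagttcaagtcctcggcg
Transcripts without it took 1.69, 27.6 and 4.40 counts in replicates 1, 2 and 3, or 6.76%, 7.06% and 8.80% of Fosb counts. In the second quantification they took 0%, 6.83% and 10.3%. In replicates 1 and 3 these shares rest on fewer than 10 counts.

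The 3′ untranslated regions of the members hold the AU-rich pentamer ATTTA, a known element of unstable mRNAs, in 9 of 10 genes. Among 8921 3′ untranslated regions of the most abundant transcripts, 65.5% held ATTTA and the median density was 1.25 per kb. Fos held 4 copies in 815 bases, or 4.91 per kb, above 92.7% of those regions, and Junb held 2 copies at 4.12 per kb. Jun and Maff each held 4 copies at 3.24 and 3.28 per kb, Fosl2 8 at 1.72 per kb and Atf3 3 at 2.53 per kb. Batf, the exception, held none in 335 bases. Jund held 1 copy at 1.88 per kb, Fosl1 1 at 1.57 per kb and Fosb 1 at 0.47 per kb.

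The longer form TATTTAT was found in 8 of the 10 members, in all but Junb and Batf, and in 26.6% of all regions. A window of 30 bases that ends with such a site is shown for 5 members to compare its surroundings, with each ATTTA in capitals; only the Fos and Fosl2 windows hold more than 1. The windows are chr12:85477091-85477120 (plus), chr5:32156859-32156888 (plus), chr4:95049090-95049119 (minus), chr1:191170349-191170378 (minus) and chr15:79358766-79358795 (plus), in the order shown.
Fos: acgtttttattgtgttttcaATTTATTTAt
Fosl2: gaagaaattgacATTTAttttattATTTAt
Jun: aaaagatgacctttgcttgtgcatATTTAt
Atf3: tttctgtaagagaaaatattacttATTTAt
Maff: tacagctgactcttccacactcttATTTAt
A match describes letters only, and mRNA half-lives were not measured.

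RefSeq promoter sequences (GRCm38.p6, 250 bases before to 50 after the start) matched 9 of the 10 members, all but Fosl1, with 3 starts for Maff. For 7 of the 9 a window held the start of the most abundant transcript. The Jund window did not, as its RefSeq start lies 1210 bases before that of the quantified transcript, nor did the Fosl2 window, whose start lies 671 bases after it. The windows were searched on both strands for the AP-1 site TGACTCA, the related ATF/CREB site TGACGTCA, the TATA box TATAAA and the CArG box bound by serum response factor. None of the windows of these 9 genes held TGACTCA or a CArG box, which 5.20% and 1.63% of 32851 promoters held. TATAAA was found in Fos and Junb, and in 13.6% of all promoters. TGACGTCA was found at 1 of the Maff starts, and in 1.79% of all promoters. The lack of a match says only that these letters are not in the window. Sites farther upstream than 250 bases, or differing from a motif by a letter, could not be found. No lack of control by these factors is read from it.

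The promoters with a match are shown with the motif in capitals: Fos (chr12:85473640-85473939, plus strand), Junb (chr8:84978699-84978998, minus strand) and Maff (chr15:79347270-79347569, plus strand). TATAAA lay 33 to 28 bases before the Fos start. In Junb it lay at the RefSeq start, 30 bases before the start of the deposited annotation, GENCODE M21. TGACGTCA lay 29 to 22 bases before the Maff start.
Fos promoter: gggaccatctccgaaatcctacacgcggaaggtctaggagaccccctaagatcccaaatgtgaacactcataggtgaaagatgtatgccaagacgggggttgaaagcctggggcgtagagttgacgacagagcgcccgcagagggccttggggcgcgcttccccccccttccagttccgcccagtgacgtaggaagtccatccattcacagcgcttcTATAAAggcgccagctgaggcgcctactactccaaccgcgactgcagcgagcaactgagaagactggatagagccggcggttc
Junb promoter: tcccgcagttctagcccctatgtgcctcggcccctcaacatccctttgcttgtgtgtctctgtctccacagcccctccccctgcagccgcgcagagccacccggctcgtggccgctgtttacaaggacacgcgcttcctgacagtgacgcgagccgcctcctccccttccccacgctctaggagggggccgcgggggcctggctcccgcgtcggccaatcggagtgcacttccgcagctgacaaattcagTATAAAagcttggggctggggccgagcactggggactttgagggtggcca
Maff promoter: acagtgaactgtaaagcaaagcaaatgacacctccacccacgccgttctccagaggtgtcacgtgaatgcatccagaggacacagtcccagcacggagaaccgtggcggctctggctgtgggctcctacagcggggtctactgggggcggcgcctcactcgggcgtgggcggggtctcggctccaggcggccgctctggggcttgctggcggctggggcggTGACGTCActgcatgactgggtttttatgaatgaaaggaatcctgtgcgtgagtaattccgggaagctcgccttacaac

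Among 22 other leucine zipper genes, potential partners or rivals of AP-1, 21 were detected. The highest were Ddit3, which encodes CHOP, at 114 ± 15.8 TPM, Atf4, the integrated stress response factor, at 102 ± 12.9 TPM, and Maf at 80.1 ± 7.03 TPM. The lowest detected was Batf3, a relative of Batf, at 1.92 ± 0.67 TPM. The chi-square test called 20 of the 22, against 64.8% of all genes tested. Their median coefficient of variation was 12.9%, against 13.4% over all genes. By mean TPM, Junb lay above all of these genes, Atf3 between Atf4 and Maf, and Fos just under Maf, and these differences were not tested.

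Of 22 kinases and serum response factor partners that act upstream of AP-1 genes, 20 were detected. The p38 target kinase Mapkapk2 had 64.0 ± 7.55 TPM, the ERK kinase Mapk3 had 35.4 ± 1.75 TPM and its activator Map2k1 had 33.3 ± 3.20 TPM. Mapk8, which encodes JNK1, was the lowest detected at 2.53 ± 0.20 TPM. The test called 18 of the 22, against 64.8% of all genes tested, and the median coefficient of variation was 11.0%, against 13.4%. In replicate 2, where Fos, Fosb and Fosl2 were high, the median log2 ratio of these genes over the other libraries was 0.07.

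Of 12 textbook AP-1 target genes, 9 were detected. Vim, which encodes vimentin, had 612 ± 16.0 TPM, Spp1, which encodes osteopontin, 449 ± 108 TPM and Hmox1, which encodes heme oxygenase 1, 115 ± 22.8 TPM. Plaur, the urokinase receptor gene, was the lowest detected at 1.36, 2.33 and 1.42 TPM in replicates 1, 2 and 3. The test called 10 of the 11 with enough counts, against 64.8% of all genes tested. The median coefficient of variation was 15.9%, against 13.4% over all genes. The median log2 ratio was 0.08, 0.13 and -0.19 in replicates 1, 2 and 3.

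The genes whose pattern over the libraries was nearest to that of Fos were low in level. By the Euclidean distance of centred log2 CPM among 9836 protein-coding genes that averaged 100 counts or more, the nearest were Id3 at 0.24, Shisa3 at 0.32, Bmp2 at 0.35, Dusp5 at 0.39 and Synpo2 at 0.43, against a median distance of 1.20. Id3 encodes an inhibitor of helix-loop-helix factors, Bmp2 a secreted growth factor and Dusp5 an ERK phosphatase. Id3 had 0.62, 2.31 and 1.24 TPM in replicates 1, 2 and 3, and Dusp5 had 0.49, 1.15 and 0.63 TPM. Among the members the nearest was Fosl2 at 0.78, and the others lay between 1.06 and 1.59. The distance takes in the size of the swings as well as their order. Fosb, at 1.38, had the same order of libraries as Fos but wider swings. With 3 libraries such a distance describes only these libraries.

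The pair of deposited quantifications differed in scale more than in the order of member means. TPM of the second was lower by a median log2 ratio of -1.07, -0.93 and -1.54 in replicates 1, 2 and 3 over 9485 genes. Relative to that median, Jund was 0.30 higher in the second, or 1.23-fold, and Fos 0.19 higher, whereas the other detected members lay between -0.07 and 0.05. Jund counts in the second were 133%, 143% and 141% of those in the first. In the second, Jund had 21.4, 24.7 and 15.7 TPM and Batf 14.4, 17.4 and 11.6 TPM in replicates 1, 2 and 3. Jun had 25.9, 24.2 and 13.1 TPM there, so Jund exceeded Jun in replicates 2 and 3. In the first, Jun exceeded Jund in every library. The scale of the second also differed between the libraries, so the narrow TPM spread of Jund and Batf is that of the first. The middle 90% of genes lay between -0.19 and 0.39 on the same scale.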

How the data were processed

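Cytosolic total RNA of 3 libraries was analysed from deposited tables, with 1 µg of RNA per library per the labels. Per the file headers, the authors' first tables give an expected count and TPM for each gene and transcript, and a second deposited transcript table holds an estimated count and TPM. The first tables also hold the posterior SD of the count and interval bounds of TPM, which were read. Per the text deposited with the libraries, the build was mm10 with GENCODE M21. Aligner, quantifier, versions and strand use: not given in the sources used here. TPM shares 1 total with short abundant RNAs, so its scale is specific to these tables. Rows naming no annotated gene were not used; their share of counts was at most 0.774%, in replicate 1. Values of low genes are least precise in replicate 1, which has the fewest counts.

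After rounding, TMM factors were computed in edgeR 4.0.16 (R 4.3.3), with an intercept-only model for dispersions of genes kept by filterByExpr. Chi-square tests used a mean count of at least 10 and adjusted p below 0.05. Alternatives used DESeq2 1.42.0 size factors, library totals, other limits, pseudocounts and prior counts, the second quantification, rescaled TPM and omission of each replicate. The chi-square tests ran in scipy 1.17.1 and numpy 2.4.6, tables were joined in pandas 2.3.3 under Python 3.11.15, and transcript copies were searched with blastn 2.17.0 at 95% identity over 80% of the shorter sequence, which found only the overlapping antisense gene of Jund. Methods were tested on simulated data. Members and gene lists were chosen with earlier results of these data known. Named genes are all members, the 3 highest and the lowest detected gene of each of 3 lists, the 5 genes nearest to Fos, Malat1 and Neat1. Overlapping genes were named besides, as were the detected markers. The symbol Ddit3 has 2 identifiers, of which the one with the higher mean count was used. A comparison of member proteins was planned and not done here.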

Additional observations from a re-analysis of the deposited data

How the results depend on the processing

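No paired analysis was possible because all libraries form 1 group. The median log2 ratio of replicate 1 over the others, 0.03, turned to -0.20 without replicate 3, and leaving out either of the other libraries gave -0.20 to 0.22. Neighbours in the order that were called, 1 of 9, became 2 with the second quantification and 2 to 4 when a replicate was left out. Pairs of detected members, 6 of 15, stayed at 6 with a pseudocount of 0.1 or rescaled TPM and became 7 with the second quantification. With a replicate left out they became 7 to 11, with 11 without replicate 1, the library in which Fos is lowest. All pair alternatives were chosen after seeing the data, and leaving out a replicate leaves 2 libraries for the SD. The mean share of Fos-201 in Fos, 81.4%, was 62.1% by the second quantification and 94.9% by expected counts. Of the alternatives of the summary results, 43 kept direction and size within the limits used, 7 moved beyond them and 1 reversed. These limits were wide, as a change from 6 to 9 detected members counted as kept. Members beyond counting noise, 8, were 9 with DESeq2 size factors or library totals and 6 to 8 with a replicate left out. Detected members were 9 at 0.1 TPM, 6 at 5 TPM, 8 with rescaled TPM and 7 without replicate 3. The log2 ratio of the Jun to the Fos sum, 1.64, was 1.11 without replicate 1 and 1.94 with Fos-201 alone, the last chosen after seeing the data. Low members are limited by depth, and the library sizes do not separate biological from technical spread.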
